A study of Mus musculus with 6 samples.

Results

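Promoter shoulder peaks are stretches of open chromatin whose nearest edge lies 1 to 3 kb from an annotated transcription start site. They were taken as every peak on chromosomes 1 to 19 that the authors' table places in the class Promoter1-2k or Promoter2-3k. This gave 3095 of the 75134 peaks of the series, in coordinates of GRCm38. Of these, 1581 had their edge 1 to 2 kb and 1514 had it 2 to 3 kb from the start site. The peak centre lay upstream in 1401 and downstream, towards or into the gene body, in 1694. The peaks were annotated to 2620 genes, of which 2258 had 1 shoulder peak, 283 had 2 and 79 had 3 or more. Neb, which encodes the giant thin filament protein nebulin, had 9. A further 35 such peaks on chromosomes X and Y were not taken.

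The libraries came from nuclei of frozen mouse quadriceps femoris, the large extensor of the thigh, and were made by ATAC-seq, in which Tn5 transposase cuts and tags accessible DNA. Replicates 4, 5 and 7 were from Prr14-KO mice and replicates 3, 4 and 8 from Prr14-WT mice. The sources used here give neither the deleted part of Prr14 nor the strain, age or sex of the mice, and they name no treatment. Nor does a label say whether each library is its own animal. The p-values below thus cover the spread among these 6 libraries, some of which may be technical. Counts in all peaks ran from 9346968 to 12061822 in Prr14-KO and from 7608514 to 11575061 in Prr14-WT libraries, and counts in shoulder peaks ran from 343522 to 452740 in Prr14-KO and from 255036 to 427539 in Prr14-WT libraries. Spearman correlations of log2 CPM over shoulder peaks were 0.936 to 0.946 within Prr14-KO, 0.913 to 0.930 within Prr14-WT and 0.895 to 0.915 between the groups. CPM are counts per 1000000 counts in tested peaks, scaled with the factors of the edgeR method TMM. The peaks nearest the start sites of the muscle genes Acta1, Ckm, Mylpf and Tnnt3 were all above the 99th percentile of core promoter peaks, as the tissue label states. No shoulder peak belonged to Prr14. Its core peak gave 51.2, 59.7 and 70.7 CPM in Prr14-KO and 62.3, 66.5 and 57.1 CPM in Prr14-WT, and it cannot check the genotype because the deleted part is not given.

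At an active gene the start site itself sits in a nucleosome-depleted stretch where the transcription machinery assembles, and this core is open in many tissues. The flanks hold proximal enhancers and often a second start site, and they vary more between cell types. In muscle, proximal flanks are bound by MEF2 factors and by the myogenic factors of the MyoD family, which recognise E-boxes. PRR14 is a protein of the nuclear lamina that holds heterochromatin at the nuclear edge through HP1. The comparison asks where accessibility differs in muscle without it, and the shoulder was set against the core (class Promoter1k) of the same gene.

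Some shoulder peaks lie over a start site that the authors' annotation did not use. RefSeq windows of GRCm38.p6, from 250 bases before to 50 bases after a start site, placed a start inside 53 shoulder peaks, in 11 cases a start of the annotated gene itself. Of these 53 peaks, 4 were higher and 2 lower in Prr14-KO by the test described below (11.3%, against 7.01% of all tested peaks). The median signal of the 53 was 16.0 CPM, against 6.24 CPM over all tested peaks, and weak peaks are called less often. The windows below come from the 4 of these 6 changed peaks, 2 lower and 2 higher, whose windows hold the E-box or the AP-1 site. The Lrrc30 peak holds a further window on the other strand that overlaps the one shown. The capitals mark 4 motifs, each searched on both strands. They are the myogenic E-box with the letters CAGCTG, the GC box with GGGCGG, the CCAAT box, which reads ATTGG on the other strand, and the AP-1 site with TGANTCA. No 2 of them overlap in these windows. The start site follows the first 250 bases of each window.
Mylk4, chr13:32783915-32784214, minus strand, peak lower in Prr14-KO: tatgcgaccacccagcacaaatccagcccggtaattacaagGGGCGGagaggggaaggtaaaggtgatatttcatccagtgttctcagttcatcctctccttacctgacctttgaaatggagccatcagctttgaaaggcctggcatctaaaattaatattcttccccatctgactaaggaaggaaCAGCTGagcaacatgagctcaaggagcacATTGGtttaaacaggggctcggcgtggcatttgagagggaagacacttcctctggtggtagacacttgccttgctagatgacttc
Gm36201 in the Lrrc30 peak, chr17:67629283-67629582, minus strand, peak lower in Prr14-KO: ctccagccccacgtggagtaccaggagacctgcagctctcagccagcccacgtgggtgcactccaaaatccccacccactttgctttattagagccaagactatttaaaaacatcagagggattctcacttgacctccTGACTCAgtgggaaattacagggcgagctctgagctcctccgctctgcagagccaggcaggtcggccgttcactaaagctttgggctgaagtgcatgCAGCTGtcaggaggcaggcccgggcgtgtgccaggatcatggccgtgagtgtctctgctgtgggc
9930111H07Rik in the A630001G21Rik peak, chr1:85775021-85775320, plus strand, peak higher in Prr14-KO: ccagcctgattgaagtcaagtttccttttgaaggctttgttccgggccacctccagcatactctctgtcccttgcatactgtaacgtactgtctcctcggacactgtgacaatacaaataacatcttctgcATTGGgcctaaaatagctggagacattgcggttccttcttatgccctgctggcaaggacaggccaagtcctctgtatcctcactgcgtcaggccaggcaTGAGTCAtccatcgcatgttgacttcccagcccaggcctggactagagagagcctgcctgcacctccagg
Gm39069 in the Ampd3 peak, chr7:110780763-110781062, minus strand, peak higher in Prr14-KO: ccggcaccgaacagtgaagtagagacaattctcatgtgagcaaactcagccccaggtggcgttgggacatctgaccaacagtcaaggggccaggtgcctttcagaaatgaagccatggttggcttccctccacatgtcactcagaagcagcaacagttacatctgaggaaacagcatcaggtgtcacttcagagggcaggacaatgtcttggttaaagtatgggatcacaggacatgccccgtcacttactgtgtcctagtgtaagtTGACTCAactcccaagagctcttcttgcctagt

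The E-box lay in 15 of the 55 RefSeq windows with a start inside a shoulder peak (27.3%) and in 16.3% of all 32851 windows. The AP-1 site lay in 12.7% of the 55 and 7.81% of all windows. The MEF2 motif (CTA, then any 4 bases, then TAG) was in 3 of the 55 (5.45%), against 3.69% of all, and the TATA box, searched as TATAAA, in 12.7% of the 55, against 13.6% of all. The GC box was in 27.3% of the 55 and 35.7% of all windows, and the CCAAT box in 23.6% of the 55 and 37.4% of all. The overlapping Lrrc30 windows share their E-box and their AP-1 site, so each is counted in both windows. These are shares of letters, not of bound sites, and no test was made. A comparison of motifs between called and other shoulder peaks is void, because a RefSeq window was found for only 65 of the 89 genes (73.0%) with a shoulder lower in Prr14-KO and a core peak.

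At Mylk4, a kinase gene of the myosin light chain kinase family, the peak over this start site gave 11.6, 11.4 and 10.5 CPM in Prr14-KO and 24.0, 35.2 and 15.01 CPM in Prr14-WT. The groups did not overlap, and the log2 fold change was -1.15 (SE 0.21, adjusted p = 3.11e-06, edgeR quasi-likelihood test). The Lrrc30 peak gave 38.2, 34.9 and 30.0 CPM in Prr14-KO, all below the 49.4, 73.8 and 40.8 CPM in Prr14-WT (log2 fold change -0.67, adjusted p = 0.0057). The Ampd3 peak, at the gene for the erythrocyte-type AMP deaminase, went the other way, with 26.5, 27.0 and 24.3 CPM in Prr14-KO and 11.7, 11.9 and 12.4 CPM in Prr14-WT (log2 fold change 1.11, adjusted p = 7.12e-06). The A630001G21Rik peak gave 20.9, 19 and 13.9 CPM in Prr14-KO and 6.07, 9.48 and 5.92 CPM in Prr14-WT (log2 fold change 1.31, adjusted p = 1.11e-06).

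Shoulder peaks changed in both directions in about equal number. Of the 3061 that passed the filter on low counts, 122 were higher in Prr14-KO and 109 were lower at an adjusted p below 0.05, adjusted over all 73896 tested peaks; the other 34 members were too low to test. The called share was 7.55%, against 7.01% of all tested peaks. Higher calls made up 3.99% of shoulder peaks, against 2.77% of all peaks, and lower calls 3.56%, against 4.23% of all peaks. The median log2 fold change was 0.0059 over shoulder peaks and -0.011 over all peaks. Both counts moved with single libraries: higher calls numbered 47 without Prr14-KO replicate 5, 74 without Prr14-KO replicate 4 and 74 without Prr14-WT replicate 3, and lower calls numbered 54 and 63 without Prr14-KO replicates 5 and 7 and 40 without Prr14-WT replicate 4. Scaled by the authors' factors rather than TMM, 88 shoulder peaks were higher and 22 lower. That scaling moved the median to 0.21 over shoulder peaks and to 0.19 over all peaks, so that the shoulder median stayed 0.017 above that of all peaks under both.

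The 20 peaks with the largest called changes at genes without a predicted name, taken at 5 CPM or more and with groups that did not overlap, show the range. Among the 10 lower in Prr14-KO, the largest change was at Ppp1r3a, which encodes the muscle subunit that directs protein phosphatase 1 to glycogen. Its upstream shoulder gave 5.33, 4.11 and 3.94 CPM in Prr14-KO and 14.9, 21.6 and 11.8 CPM in Prr14-WT. The groups were far apart, with the highest Prr14-KO library well under the lowest Prr14-WT library, and the log2 fold change was -1.87 (SE 0.24, adjusted p = 1.3e-11). Mettl21e, a protein lysine methyltransferase gene of muscle, had 3.14, 3.78 and 5.49 CPM in Prr14-KO and 12.04, 20.4 and 9.21 CPM in Prr14-WT (log2 fold change -1.75). Mbnl1, whose product binds RNA and sets the adult splicing programme of muscle, had 4.18, 3.53 and 4.76 CPM in Prr14-KO and 11.0, 17.9 and 12.6 CPM in Prr14-WT (-1.74). In both, Prr14-WT replicate 4 was the highest library. The other 7 were shoulders of the death ligand gene Tnfsf10, the Arp3-related gene Actr3b, the DNA repair gene Xrcc2, the deubiquitinase gene Usp4, the hemicentin gene Hmcn1, the dystroglycan glycosyltransferase gene B3galnt2 and the actin-bundling gene Fscn2, with log2 fold changes from -1.72 to -1.29.

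Among the 10 higher in Prr14-KO, Tjap1, which encodes a tight junction associated protein, had the largest change. Its upstream shoulder gave 15.9, 17.8 and 10.9 CPM in Prr14-KO and 4.63, 4.14 and 4.87 CPM in Prr14-WT (log2 fold change 1.71, SE 0.25, adjusted p = 1.56e-09). The Prr14-WT libraries lay within 1 CPM of each other, far below every Prr14-KO library. Actn2, an α-actinin of the Z-disc, had a downstream shoulder with 24.6, 18.2 and 17.9 CPM in Prr14-KO and 4.84, 9.11 and 8.42 CPM in Prr14-WT (1.44, SE 0.22). Acaca, which encodes the acetyl-CoA carboxylase of fatty acid synthesis, had 14.5, 22.1 and 10.2 CPM in Prr14-KO and 6.48, 7.45 and 6.19 CPM in Prr14-WT (1.22, SE 0.23). The others were Agpat2, an acyltransferase gene of phospholipid and triglyceride synthesis, the proton channel gene Otop1, the Golgi complex gene Cog1, the spliceosome gene Snrpd3, the cAMP phosphodiesterase gene Pde4b, the endothelial claudin gene Cldn5 and the kelch domain gene Klhdc1, with log2 fold changes from 1.18 to 1.37. All 20 kept their call under each of the 11 other tools, scalings, filters and left-out libraries tried.

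**Figure D1:**
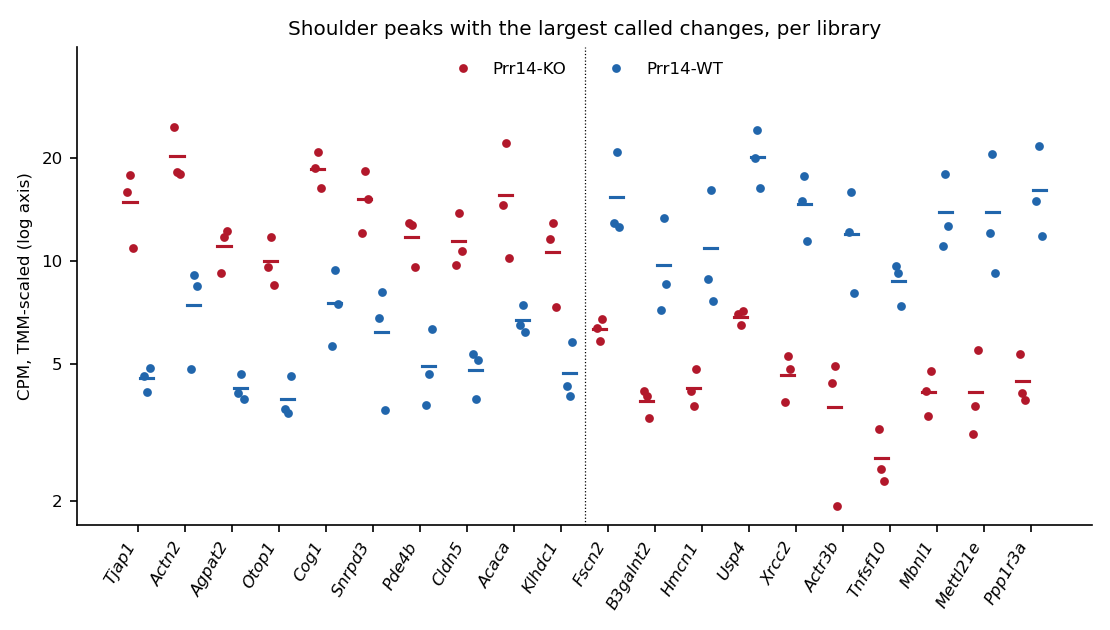
Accessibility of the 20 shoulder peaks with the largest called changes, on a log axis of TMM-scaled CPM. Each point is 1 library (3 Prr14-KO in red, 3 Prr14-WT in blue), each bar the mean, and the dotted line parts the 10 peaks higher in Prr14-KO from the 10 lower; groups do not overlap at any of them because that was part of the choice.

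In genes with several called shoulders the calls had 1 direction. There were 9 genes with more than 1 called shoulder peak, 5 with higher and 4 with lower calls. For comparison, 283 genes had 2 shoulder peaks and 79 had 3 or more, called or not. Uncalled shoulders of the 9 genes stood at -0.045 and 0.33 at Mical2, -0.19 at B3galnt2 and 0.35 at Slc41a3. Agpat3, another acyltransferase gene, had 3 higher, at log2 fold changes of 0.69, 0.75 and 0.96. Axin2, a Wnt target and feedback inhibitor, Mical2, Slc41a3 and Txnip had 2 higher each. Actr3b, B3galnt2, the nucleotide receptor gene P2ry6 and Svil, which encodes the muscle-attachment protein supervillin, had 2 lower each. At Txnip, a glucose-responsive arrestin gene, the downstream shoulder rose by 1.05 (SE 0.17) and the upstream one by 0.64 (SE 0.19) on the log2 scale. Shoulders of 1 gene share a neighbourhood and are not independent.

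Set against the core, shoulder peaks were smaller and changed more often. Their median width was 646 bases, against 1177 bases for the 13941 core peaks on the same chromosomes, and their median signal per length was 10.8 CPM per kb, against 16.3 CPM per kb. Of the 13928 core peaks tested, 149 were higher in Prr14-KO and 142 lower (2.09%), and their median log2 fold change was 0.061. Since weak peaks are called less often, shares were set side by side at like signal. Between 5 and 10 CPM the called share was 8.79% in shoulder peaks, 2.84% in core peaks and 11.5% in peaks outside promoters. Between 10 and 20 CPM it was 13.7% in shoulder, 3.09% in core and 16.0% in outside peaks. Between 20 and 40 CPM it was 8.28% in shoulder, 2.03% in core and 15.1% in outside peaks. In each of the bins from 2.5 to 80 CPM the shoulder value lay between the other 2. These are counts of peaks, which are not replicates, and no test of the difference was made.

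**Figure D2:**
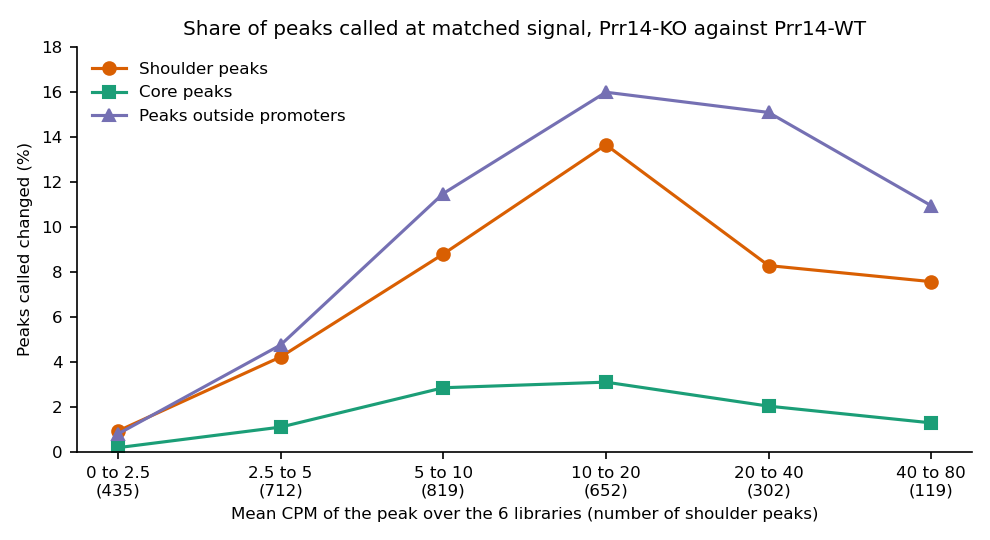
Share of tested peaks called changed between Prr14-KO and Prr14-WT (y axis, percent) by mean CPM of the peak over the 6 libraries (x axis), for shoulder peaks, core peaks and peaks outside promoters on chromosomes 1 to 19. The shoulder line runs close to the outside peaks up to 10 CPM (8.79% against 11.5% in the third bin) and well above the core line, which stays at or below 3.09%.

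The called share differed between the near and the far class, though not steadily with distance, and the difference was not tested. In the class 1 to 2 kb, 45 were higher and 43 lower of 1560 tested (5.64%), and in the class 2 to 3 kb, 77 were higher and 66 lower of 1501 (9.53%). Median signal was also higher in the far class, at 7.46 CPM against 6.18 CPM in the near one. Just past the 1 kb limit, with the edge 1000 to 1200 bases away, 9 of 303 were called (2.97%), while just inside it, where peaks are not shoulders, 22 of 307 were called (7.17%). Just short of 3 kb, 36 of 296 were called (12.2%), and just past it 27 of 285 (9.47%). The limits of the class thus do not mark a step in one direction. The called shares were close upstream and downstream, and their difference was not tested as such: 53 higher and 49 lower of 1385 upstream (7.36%), and 69 higher and 60 lower of 1676 downstream (7.70%).

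**Figure D3:**
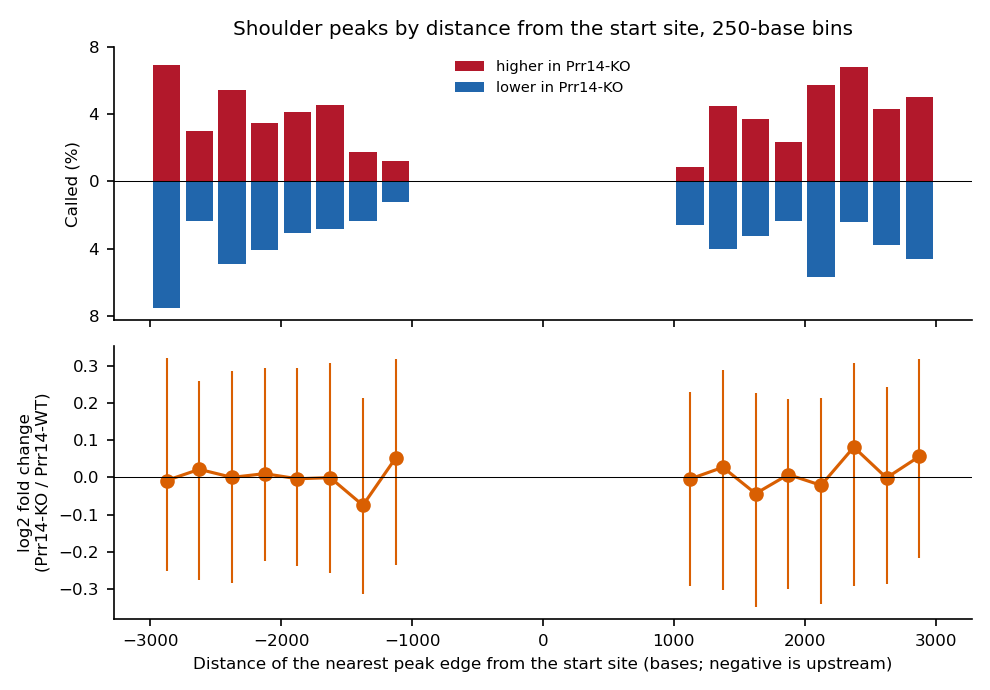
Shoulder peaks in bins of 250 bases by the distance of their nearest edge from the start site (x axis, negative is upstream). The upper panel gives the percent called higher (up) and lower (down) in Prr14-KO, and the lower panel the median log2 fold change of Prr14-KO over Prr14-WT with its quartiles; medians stay between -0.075 and 0.081 in every bin, while the called share runs from 2.48% to 14.5%.

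Over the class as a whole the genotypes did not differ beyond the spread between libraries. Shoulder peaks held 3.68%, 3.75% and 3.54% of counts in Prr14-KO and 3.52%, 3.69% and 3.35% in Prr14-WT (exact permutation p = 0.4, two-sided; with 3 against 3 the smallest possible is 0.1). The log2 ratio of shoulder to core counts was -3.44 ± 0.13 in Prr14-KO and -3.41 ± 0.12 in Prr14-WT (SD, n = 3 each, exact permutation p = 0.8). The log2 ratio of upstream to downstream counts was -0.459 ± 0.0069 in Prr14-KO and -0.455 ± 0.022 in Prr14-WT (SD, n = 3 each, exact permutation p = 0.9).

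Most called shoulders had a core that was not called, but this does not show that shoulder and core changed differently. The test of that difference, given below, called 6 pairs higher and 6 lower of all 2327. The gene of 204 called shoulders also had a tested core peak, taken as its Promoter1k peak nearest a start site. The core was called in the same direction for 31, which were 13 of the 107 higher and 18 of the 97 lower. It was called in the opposite direction for 0, by edgeR as by DESeq2 and limma-voom, and 1 opposite core had an unadjusted p below 0.05. Over all 13928 tested core peaks, 2.09% were called in either direction. The core change, called or not, was above 0 for 86 of the 107 higher and below 0 for 66 of the 97 lower. Median log2 fold changes were 0.91 in the 107 higher shoulders and 0.21 in their cores, and -0.90 in the 97 lower shoulders and -0.15 in their cores. The shoulders here were chosen by their own change, so that their medians lie farther out is given by the choice. Mettl21e, Ppp1r3a and Actn2 are among those whose core moved along. The Mettl21e core fell by 1.94 and the Ppp1r3a core by 1.19 on the log2 scale, and the Actn2 core rose by 0.69.

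The core peak of the same gene was often not next door. Many genes have several annotated starts, and the gap between shoulder and core was 4954 bases in the median over 2327 pairs, with 1165 pairs at 5000 bases or less. In these near pairs 130 shoulders were called (75 higher, 55 lower, 11.2%), and in the 1162 pairs farther apart 74 were called (32 higher, 42 lower, 6.37%). Of the 31 pairs with both peaks called in 1 direction, 27 were near and 4 far. Over all pairs, the core was called in 4.29% of the near and 2.58% of the far ones. Median shoulder signal was 8.73 CPM in near and 6.07 CPM in far pairs. Across pairs the log2 fold changes of shoulder and core had a Pearson correlation of 0.32, which is across genes within these libraries and carries no p. Shoulders of genes without a core peak were called least, with 15 higher and 12 lower of 734 (3.68%), and their median signal was 5.27 CPM. Between 5 and 10 CPM, 5.43% were called without a core peak and 9.76% with one. Between 10 and 20 CPM these shares were 4.58% and 15.9%. Below 2.5 CPM (2 of 147 called) and from 40 to 80 CPM (1 of 11 called) the share was higher without a core peak.

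The test of the difference itself, in 1 model over both peaks, called 6 pairs in which the shoulder moved up relative to the core and 6 in which it moved down, each 0.258% of the 2327 pairs. At an unadjusted p below 0.05 there were 289. The count rests on few libraries: without Prr14-WT replicate 4 it was 0 and 0 (130 and 124 at an unadjusted p below 0.05), without Prr14-KO replicate 5 it was 1 and 2, without Prr14-KO replicate 4 it was 2 and 13, without Prr14-KO replicate 7 it was 10 and 3, and without Prr14-WT replicate 3 it was 2 and 4. With the core peak that lies nearest on the chromosome, a pairing chosen after seeing the data, it was 19 and 15.

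At Tjap1 the shoulder values above stood beside a core, 1156 bases away, with 17.1, 18 and 17.5 CPM in Prr14-KO and 20.2, 22.4 and 19.6 CPM in Prr14-WT. Every Prr14-KO library was above the Prr14-WT libraries at the shoulder and below them at the core, where the change was not called, and the difference of log2 fold changes was 1.93 (SE 0.32, adjusted p = 0.00747 in the edgeR interaction test). Samd13 and Syne2 had gaps of 1472 and 3131 bases, with shoulder changes of 2.21 and 1.62 beside core changes of 0.016 and -0.28, and at both cores the groups overlapped. The Samd13 shoulder was weak, with 7.53, 6.33 and 3.30 CPM in Prr14-KO and 1.13, 0.92 and 1.71 CPM in Prr14-WT. Syne2 encodes nesprin-2, which links the nuclear envelope to the cytoskeleton, and its shoulder gave 3.87, 5.92 and 3.48 CPM in Prr14-KO and 1.34, 1.20 and 1.84 CPM in Prr14-WT. The kynurenine aminotransferase gene Kyat1 (shoulder 1.85, core -0.029, gap 4355 bases) and the nuclease scaffold gene Slx4 (shoulder 1.17, core -0.13, gap 15677 bases) complete those with a raised shoulder. The Kyat1 shoulder gave 3.76, 3.53 and 3.94 CPM in Prr14-KO and 0.93, 1.10 and 1.05 CPM in Prr14-WT. Mean signal of the Samd13, Syne2 and Kyat1 shoulders was 3.49, 2.94 and 2.39 CPM, below the 5 CPM asked of the peaks with the largest change. At Syne2, Kyat1 and Slx4 the shoulder flanks a start other than the one the core marks.

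Asb5, a muscle gene of the ankyrin repeat and SOCS box family, was the reverse case. Its upstream shoulder gave 6.17, 4.85 and 4.39 CPM in Prr14-KO and 5.25, 5.24 and 6.19 CPM in Prr14-WT, so the groups overlapped. The core 1059 bases away, on the same transcript, gave 6.17, 4.52 and 7.42 CPM in Prr14-KO and 20.1, 33.9 and 16.7 CPM in Prr14-WT (log2 fold change -1.98, SE 0.22, adjusted p = 2.14e-15). The difference of 1.82 in favour of the shoulder (SE 0.39, adjusted p = 0.0275, edgeR interaction test) therefore came with a lower core, not a raised shoulder. Tmem184a mirrored this, with a core raised by 1.71 (SE 0.22) and a shoulder at 0.055 (SE 0.20), 8940 bases apart.

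Of the other pairs that moved down, only Ube2g2, the gene of an ubiquitin-conjugating enzyme of the endoplasmic reticulum, lay close, at 2163 bases. Neither of its peaks passed alone (shoulder -0.52, core 0.37). Usp4 gave 7.005, 6.49 and 7.14 CPM in Prr14-KO and 19.96, 24.1 and 16.3 CPM in Prr14-WT at the shoulder, while its core, 27122 bases away at another start, had a log2 fold change of 0.090. Jph1, the junctophilin gene of the triad, had a shoulder with 19.8, 21.2 and 13.2 CPM in Prr14-KO and 38.2, 49.1 and 34.8 CPM in Prr14-WT, and its core lay 94332 bases off. Mbnl1 and B3galnt2 completed the list at gaps of 52338 and 36386 bases. In these 4 the shoulder flanks a start that is not the one the core marks.

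**Figure D4:**
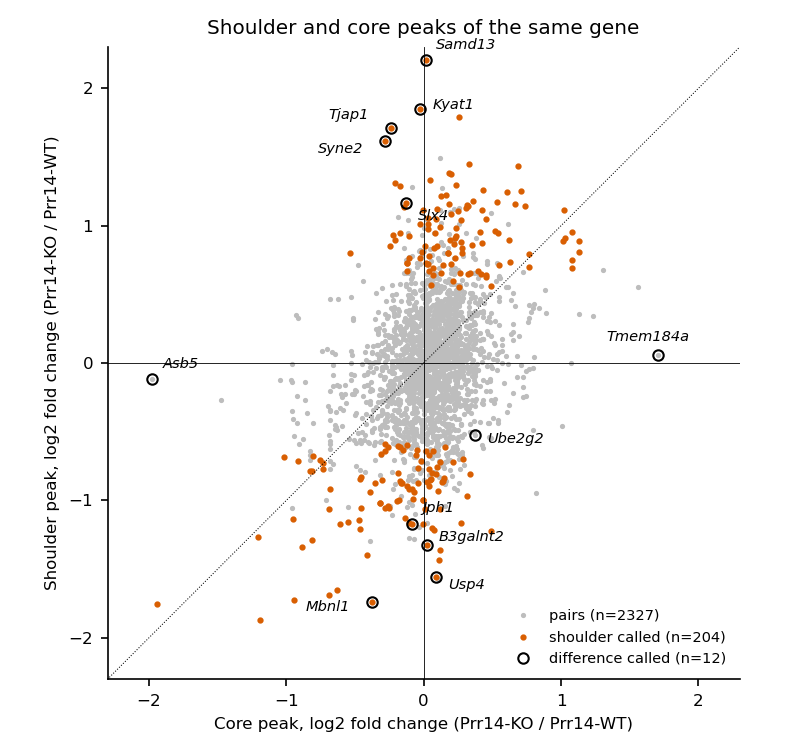
Log2 fold change of Prr14-KO over Prr14-WT in the core peak (x axis) and in the shoulder peak (y axis) of the same gene, 1 point for each of 2327 pairs. Orange points are the 204 called shoulders and black rings the 12 pairs whose difference was called; most orange points lie nearer the vertical axis than the dotted diagonal of equal change.

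In 241 genes with tested shoulders on both sides, the difference between the sides was called in 7 with the upstream side higher relative to the downstream side (2.9%) and in 8 with it lower (3.32%). These counts were 1 and 2 without Prr14-KO replicate 5 and also without Prr14-KO replicate 7, 4 and 3 without Prr14-KO replicate 4, 3 and 7 without Prr14-WT replicate 3, and 4 and 5 without Prr14-WT replicate 4.

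Myo18a, an unconventional myosin gene, had its upstream side higher relative to the downstream side in Prr14-KO (difference of log2 fold changes 0.73, SE 0.15, adjusted p = 0.0014 in the edgeR interaction test). Its upstream shoulder gave 38.9, 38.6 and 31.7 CPM in Prr14-KO and 22.6, 32.4 and 22.1 CPM in Prr14-WT, and its downstream one gave 64.6, 68.5 and 60.1 CPM in Prr14-KO and 66.7, 91.7 and 68.7 CPM in Prr14-WT. Neither side passed alone. Pde4d, a cAMP phosphodiesterase gene with many starts, had its 2 upstream shoulders sum to 31.7, 34.1 and 27.7 CPM in Prr14-KO and 40.4, 63.0 and 41.3 CPM in Prr14-WT, and its 2 downstream ones to 8.68, 9.62 and 7.69 CPM in Prr14-KO and 4.53, 6.44 and 6.19 CPM in Prr14-WT. Of the 2 upstream peaks 1 was lower (-1.16, SE 0.20) and the other was not called (0.20, SE 0.21); neither downstream peak was called. In these sums every Prr14-KO library was below the Prr14-WT libraries upstream and above them downstream, and the difference was -1.23 (SE 0.25, adjusted p = 0.0014, edgeR interaction test). Its peaks lie far apart, at different starts. Kremen1, a Dickkopf receptor gene (1.7), Dab2ip, a Ras GTPase activator gene (1.27), and Clasp1, a microtubule plus-end gene (-1.34), were also called. Their calls were lost without Prr14-KO replicate 7 (adjusted p 0.085 to 0.0889), the calls of Kremen1 and Dab2ip also without Prr14-KO replicate 5, that of Dab2ip without Prr14-WT replicate 4, that of Kremen1 without Prr14-WT replicate 3 and that of Clasp1 without Prr14-KO replicate 4.

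**Figure D5:**
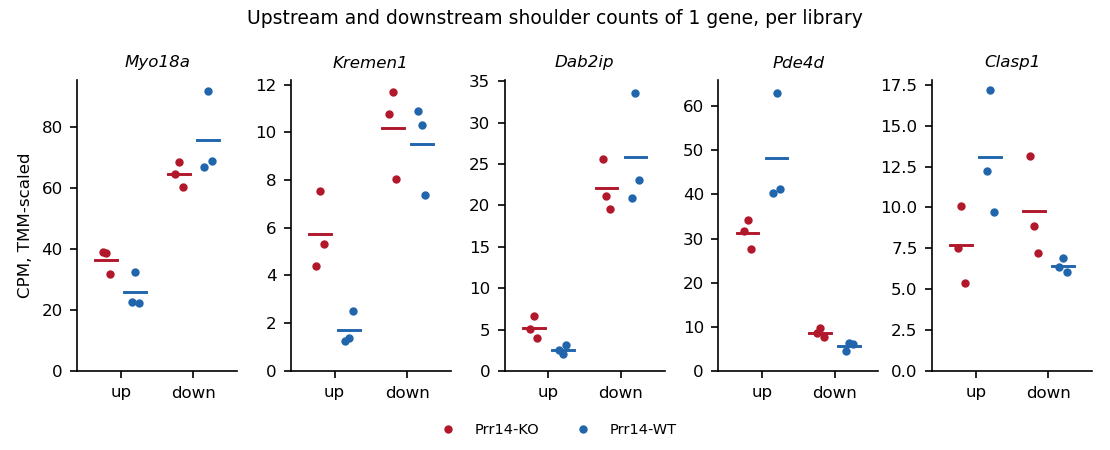
TMM-scaled CPM upstream (up) and downstream (down) of the start site for 5 genes with a called difference between the sides, Myo18a, Kremen1 and Dab2ip with the upstream side relatively higher in Prr14-KO and Pde4d and Clasp1 with it lower. Points are libraries, red Prr14-KO and blue Prr14-WT, bars are means, and several peaks on a side are summed; at Pde4d the Prr14-KO libraries lie below the Prr14-WT libraries upstream (27.7 to 34.1 against 40.4 to 63.0 CPM) and above them downstream (7.69 to 9.62 against 4.53 to 6.44 CPM).

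Genes of the muscle, other pathway and cell type lists had shoulders called in both directions. Over 21 lists, 122 genes had a shoulder peak, and of their 150 peaks 8 were higher and 8 lower in Prr14-KO (10.7%, against 7.01% of all tested peaks). Median signal was 10.9 CPM in these 150 peaks, against 6.24 CPM over all tested peaks, and weak peaks are called less often. The median log2 fold change was -0.037, against -0.011 over all peaks. Medians were 0.054 in the slow fibre list, -0.083 in calcium and triad genes, -0.035 in glycolysis and glycogen, 0.38 at the neuromuscular junction and 0.20 in mechanotransduction. With the authors' factors, which raise all changes by about the shift given above, the calcium and triad median turned to 0.093 and the glycolysis and glycogen median to 0.13, while fast fibre genes stood at -0.096 and sarcomere genes at -0.21. Tissue was profiled in bulk, so fewer nuclei of a type and less access per nucleus cannot be told apart.

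Fast fibre genes had 0 higher and 2 lower of 9 shoulders, with a median of -0.28. Mylpf, the fast regulatory light chain, gave 26.5, 31.0 and 27.8 CPM in Prr14-KO and 47.6, 42.9 and 38.2 CPM in Prr14-WT at its downstream shoulder (log2 fold change -0.59, adjusted p = 0.0236, edgeR), while its core stood at -0.12. This call was lost without any 1 of Prr14-KO replicates 4, 5 and 7 or Prr14-WT replicate 3 (adjusted p 0.0966 to 0.182), and with the authors' factors. The other was Mylk4, described above. Summed over promoters of the list, fast fibre signal was 2544 to 2716 CPM in Prr14-KO and 2336 to 3586 CPM in Prr14-WT, with Prr14-WT replicate 4 highest, and the part of that library in the fast fibre calls was not tested beyond leaving it out, under which both kept their call. The myosin heavy chain genes Myh1, Myh2 and Myh4 had no shoulder peak.

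Slow fibre genes had 1 higher and 1 lower of 8. Actn2 was the higher one. Pln, which encodes the calcium pump inhibitor phospholamban, gave 5.44, 3.78 and 5.86 CPM in Prr14-KO and 8.13, 10.7 and 6.98 CPM in Prr14-WT (-0.79, adjusted p = 0.0427, edgeR). That call was lost under 9 of 11 alternatives, among them the loss of any 1 library except Prr14-WT replicate 8. The shoulder of Myh7, the slow myosin gene, had 5.23, 4.27 and 2.20 CPM in Prr14-KO and 1.65, 2.39 and 2.76 CPM in Prr14-WT, with overlapping groups and a difference of 0.78 on the log2 scale (adjusted p = 0.286, edgeR, not called). Of 16 slow fibre genes 14 had a promoter peak (the slow light chain genes Myl2 and Myl3 had none). Their summed promoter signal was 296 to 339 CPM in Prr14-KO and 215 to 270 CPM in Prr14-WT. Which genes carried this gap was not tested.

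Sarcomere genes had 0 higher and 1 lower of 28 shoulders, with a median of -0.38. The 28 came from 13 genes, and 9 of them were at Neb (median -0.59), so the list median leans on 1 gene. All 9 Neb shoulders had log2 fold changes below 0 under both scalings, from -0.92 to -0.20 with TMM, and 1 passed. It gave 4.6, 3.45 and 2.20 CPM in Prr14-KO and 5.04, 7.55 and 6.71 CPM in Prr14-WT (adjusted p = 0.0396, edgeR), and its call was lost without Prr14-KO replicate 5 or 7 or Prr14-WT replicate 4 or 8, and with DESeq2 and the authors' factors. Of the calcium and triad genes, 1 was higher and 1 lower of 9: Cacng1, a subunit gene of the muscle calcium channel, at 0.98 (6.80, 10.4 and 6.32 CPM in Prr14-KO, 4.73, 4.23 and 2.90 CPM in Prr14-WT), and Jph1 at -1.17 (a call lost with the authors' factors). The Cacng1 call was lost without Prr14-KO replicate 5 or Prr14-WT replicate 8. Glycolysis and glycogen genes had 0 higher and 1 lower of 10. Ppp1r3a, a glycogen gene outside the list, is described above.

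Neuromuscular junction genes had 1 higher and 0 lower of 8, the dystrophin relative Utrn, with 26.6, 23.8 and 21.8 CPM in Prr14-KO and 9.57, 15.8 and 11.5 CPM in Prr14-WT (0.96, adjusted p = 0.000193, edgeR). Lamina and heterochromatin genes had 2 higher and 0 lower of 7, with a median of 0.45. Ehmt1, which encodes a histone H3 lysine 9 methyltransferase, had 7.95, 8.14 and 7.05 CPM in Prr14-KO and 2.47, 3.86 and 3.95 CPM in Prr14-WT (1.17, adjusted p = 0.00209, edgeR), and Syne2 was the other; the Syne2 call was lost without Prr14-KO replicate 5 (adjusted p = 0.156). Mechanotransduction genes had 1 higher, the Hippo kinase Lats1 (0.87), and 1 lower, the matricellular gene Ccn1 (-0.63), of 14. The Lats1 call was lost without any 1 library except Prr14-KO replicate 7, and with DESeq2 and limma-voom; the Ccn1 call was lost without Prr14-KO replicate 4 or 5 or Prr14-WT replicate 3 or 4, and with the authors' factors.

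In 6 pathway lists edgeR called 0 shoulders. At an unadjusted p below 0.05 there were 4 of 16 in the MEF2 list, 1 of 6 in the myogenic and satellite cell list, 2 of 8 in oxidative metabolism, 3 of 7 in atrophy and growth, 1 of 6 in the circadian list and 1 of 5 among immediate early genes. Their medians were 0.087 in the MEF2 list, -0.14 in the myogenic, -0.15 in the oxidative, -0.29 in the atrophy, 0.12 in the circadian and 0.043 in the immediate early list; the myogenic and oxidative medians turned to 0.076 and 0.042 with the authors' factors. DESeq2 also called 0 in each, and limma-voom called 1, the higher shoulder of Pdk4 in oxidative metabolism. Among MEF2 genes themselves, Mef2c had 3.87, 3.37 and 3.02 CPM in Prr14-KO and 3.91, 6.90 and 6.06 CPM in Prr14-WT at its shoulder. Its Prr14-KO libraries were all below the Prr14-WT libraries, though by little against Prr14-WT replicate 3, and its log2 fold change of -0.72 did not pass (SE 0.32, adjusted p = 0.185, edgeR). Mef2a gave 0.39 (adjusted p = 0.682) and Mef2d -0.022 (adjusted p = 0.977).

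Markers of other cell types had 12 shoulder peaks, 2 higher and 1 lower. The endothelial claudin gene Cldn5 was higher (9.72, 13.8 and 10.7 CPM in Prr14-KO, 5.35, 3.96 and 5.13 CPM in Prr14-WT; 1.25), 1 of 4 endothelial shoulders, and its core rose by 0.71. Of 14 endothelial markers 11 had a promoter peak (Pecam1, Emcn and Robo4 had none), and these summed to 138 to 170 CPM in Prr14-KO and 111 to 159 CPM in Prr14-WT. Cnn1, of smooth muscle, was higher (0.87, adjusted p = 0.0465, edgeR), a call kept under 4 of 11 alternatives and lost without Prr14-KO replicate 4, 5 or 7 or Prr14-WT replicate 3 or 4, and its list summed to 135 to 160 CPM in Prr14-KO and 139 to 159 CPM in Prr14-WT. Car3, an adipocyte and slow fibre gene, was lower (-1.34), a call lost without Prr14-KO replicate 4 or Prr14-WT replicate 4. Promoter peaks of 5 of 9 adipocyte markers summed to 43.2 to 60.3 CPM in Prr14-KO and 61.9 to 66.7 CPM in Prr14-WT. Adipoq, Cfd, Fabp4 and Retn had no promoter peak. The sum includes Car3, whose core was also called lower (log2 fold change -0.88, adjusted p = 0.000567, edgeR). The Car3 core had means of 14.14 CPM in Prr14-KO and 26.005 CPM in Prr14-WT. Much of the gap in the sum thus lay at Car3, and the sum of the other markers alone was not tested. Fibro-adipogenic, tenocyte and macrophage markers had 0 called of 2, 2 and 1 shoulders (1, 0 and 0 at an unadjusted p below 0.05; 0 with DESeq2 and limma-voom), and Schwann cell markers had no shoulder. The part of these cell types in the shoulder changes was not tested.

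In the authors' deposited table, 2856 shoulder peaks have an adjusted p, and 81 are higher and 14 lower in Prr14-KO below 0.05 (over all peaks with an adjusted p in the authors' deposited table, 2.44% are higher and 0.872% lower). Their median log2 fold change there is 0.21, against 0.19 over all peaks of the authors' deposited table.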

How the data were processed

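The labels give 3 Prr14-KO and 3 Prr14-WT libraries. The authors deposited whole-number counts for 1 common peak list, a normalized signal (the count over a single factor for its library, 0.977 to 1.04), log2 fold changes of Prr14-KO over Prr14-WT, p-values raw and adjusted, and a score per peak of unstated scale. Per the submitters' processing notes, Trimmomatic, BWA, MACS2, deepTools, bedtools and DESeq2 1.6.3 were used with GRCm38; their roles, the counting tool and any read shift are unstated there.

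Counts were tested with edgeR 4.0.16 in R 4.3.3 (glmQLFit, glmQLFTest, two-sided; TMM; filterByExpr, minimum count 10 and total 15), with Benjamini-Hochberg adjustment over 73896 peaks. No 2 replicates of a group agreed within sampling noise over shoulder peaks (chi-square over its degrees of freedom, 3.40 to 6.43). Differences between shoulder and core, and between sides, came from a second edgeR fit with a term per library, the kind of peak and its interaction with genotype. SE values of both fits were worked back from the F statistic, as the absolute log2 value over the square root of F. The procedures were tested on simulated data. Those counts were drawn independently for each peak and library, so they do not cover spread shared between peaks of a library. DESeq2 1.42.0 and limma 3.58.1 were alternatives. Named peaks were, besides those with the largest change at 5 CPM or more, all called peaks of 21 gene lists, 5 pairs and 3 genes per direction with the smallest p, and the Mef2 and myosin genes; the Txnip, Lrrc30, Ampd3, A630001G21Rik and other several-shoulder genes and the remaining called pairs were chosen after their values were seen. The members and lists were chosen with earlier results of these data known. Peaks at genes with predicted names were left out of those with the largest change. RefSeq windows of chromosome 18 were not used here, and the values of 1 list gene and 1 gene with a called difference between sides are not reported here.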

Additional observations from a re-analysis of the deposited data

How the results depend on the processing

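No paired analysis was possible because the groups share only replicate number 4. Shoulder peaks higher in Prr14-KO numbered 122, and 47 to 151 with 1 library left out. Those lower numbered 109, with 70 by DESeq2, 22 with the authors' library factors and 40 to 122 with 1 library left out. The median log2 fold change of 0.0059 became 0.21 with the authors' factors and -0.0042 to 0.064 with 1 library left out. Of the main calls, 83 of 122 higher and 22 of 109 lower were shared with the fit on the authors' factors. Shoulder minus core gave 6 pairs higher and 6 lower, 15 and 16 with limma on log2 ratios, 15 higher with all Promoter1k peaks of a gene summed, 19 and 15 with the core nearest on the chromosome, and 0 to 10 higher and 0 to 13 lower with 1 library left out. Upstream minus downstream gave 7 genes higher and 8 lower, and 1 to 7 and 2 to 10 with 1 library left out. The log2 ratio of shoulder to core counts, Prr14-KO minus Prr14-WT, was -0.026 and ran from -0.081 to 0.050 with 1 library left out. That of upstream to downstream counts was -0.0038, 0.016 as a mean of log2 CPM and 0.038 in Promoter1-2k alone, and ran from -0.015 to 0.0069 with 1 library left out. The difference at Mef2d (-0.022) turned to 0.17 with the authors' factors and 0.0061 without the filter, and ran from -0.064 to 0.12 with 1 library left out. That at Asb5 (-0.11) turned to 0.087 with the authors' factors and ran from -0.26 to 0.016. With 1 library left out, uncalled shoulders ran from -0.025 to 0.44 at Pde4d, from -0.32 to 0.050 and -0.51 to 0.011 at Dab2ip, and from -0.0091 to 0.25 at Kremen1. Of 42 called named peaks, 27 kept their call under all 11 alternatives. The cause of these changes was not tested. Below 2.5 CPM, where counts are few, 4 of 435 shoulder peaks were called.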

Other observations

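Called shoulder peaks of different genes sometimes lay near each other. Of 8 such pairs less than 100000 bases apart, 6 shared their direction and 2 did not, and of 33 pairs from 100000 to 1000000 bases apart, 24 shared it and 9 did not. Between 1000000 and 10000000 bases, 128 of 228 shared it (56.1%). Xrcc2 and both called shoulders of Actr3b on chromosome 5 were lower together, and so were those of Pln and Cep85l on chromosome 10. Ampd3 (higher) and Rnf141 (lower) on chromosome 7 differed in direction. These genes were chosen after their values were seen, pairs share peaks, and no test was made.

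At Mb, the myoglobin gene, the downstream shoulder had 18.2, 18.3 and 16.7 CPM in Prr14-KO and 6.89, 11.96 and 10.3 CPM in Prr14-WT, while the upstream one had 52.3, 48.0 and 48.3 CPM in Prr14-KO and 35.6, 57.9 and 41.6 CPM in Prr14-WT. The difference between the sides was -0.74 (SE 0.21, adjusted p = 0.026, edgeR interaction test), and the gene was chosen after its values were seen.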
